A study of Mus musculus with 40 samples.

Results

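The unfolded protein response and the integrated stress response are represented here by 34 genes, chosen by name from the rlog table of this series, which lists 27179 genes. By role they comprise 3 stress sensors, 3 transcription factors, 8 chaperones and folding factors of the endoplasmic reticulum (ER), 3 co-chaperones, 3 protein disulfide isomerases, 7 genes of ER-associated degradation, 1 subunit of the translocon, 2 regulatory subunits of the eIF2 phosphatase and 4 genes induced downstream of ATF4. All 34 passed the filter on low expression in every comparison. The data are RNA-seq of bone marrow-derived macrophages (BMDMs), grown from bone marrow in L-cell conditioned medium, from 4 WT and 4 Cpeb4-/- mice, untreated (0 hr) or treated with 10 ng/ml bacterial lipopolysaccharide (LPS) for 1, 3, 6 or 9 hr. Each mouse gave 1 library at each of the 5 times, which makes 40 libraries, 4 per genotype and time. All mice were adult males of a mixed C57BL/6J and 129 background, and Cpeb4, which encodes a cytoplasmic polyadenylation element binding protein, was deleted in the whole body of the Cpeb4-/- mice. Each of the 2 batches held 2 mice of each genotype, and none of the 6 cages held both genotypes, so that cage and genotype cannot be told apart.

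Unfolded proteins in the ER are sensed by transmembrane proteins. Ern1 encodes IRE1, which splices Xbp1 mRNA, Eif2ak3 encodes PERK, which phosphorylates the translation factor eIF2, and Atf6 encodes a membrane-bound transcription factor released by cleavage. XBP1 and ATF6 induce chaperones and degradation factors, whereas phosphorylated eIF2 lowers protein synthesis in general and favours translation of Atf4, a branch shared with other stresses under the name of the integrated stress response. Macrophages stimulated with LPS synthesize large amounts of secreted proteins, and parts of this network are known to be engaged by Toll-like receptors. The values here are mRNA levels of whole genes, which show neither splicing of Xbp1 nor phosphorylation or cleavage of the sensors.

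The promoters show which members carry the known sequence elements of the response. RefSeq promoters of the mouse build GRCm38.p6, running from 250 bases before to 50 bases after the start of transcription, were found for 29 of the 34 members. The ER stress response element (ERSE), CCAAT and CCACG separated by 9 bases, searched on both strands, was present in 9 of these 29 members (31.0%) and in 37 of all 27025 genes with a promoter in the same table (0.137%). Its first base lay between −212 and −44 relative to the start, before the transcribed part of each gene. The sites of these 9 promoters are shown because the element is the known target of ATF6 and XBP1, and they belong to 5 chaperones and folding factors, 1 co-chaperone, 1 isomerase and 2 degradation genes. They are printed with CCAAT and CCACG in capitals and each sequence written 5′ to 3′ on the strand given.
Hspa5, chr2:34772020-34772048, plus strand: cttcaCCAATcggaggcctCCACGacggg
Hsp90b1, chr10:86705633-86705661, minus strand: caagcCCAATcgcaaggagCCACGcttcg
Hsp90b1, chr10:86705528-86705556, plus strand: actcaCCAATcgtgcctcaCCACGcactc
Calr, chr8:84847070-84847098, plus strand: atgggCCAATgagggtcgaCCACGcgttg
Canx, chr11:50325795-50325823, minus strand: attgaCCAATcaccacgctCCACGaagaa
Creld2, chr15:88819515-88819543, minus strand: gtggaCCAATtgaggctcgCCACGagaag
Dnajc3, chr14:118937822-118937850, plus strand: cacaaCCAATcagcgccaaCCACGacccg
Pdia6, chr12:17266486-17266514, plus strand: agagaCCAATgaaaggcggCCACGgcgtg
Syvn1, chr19:6046527-6046555, plus strand: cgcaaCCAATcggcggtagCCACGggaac
Derl3, chr10:75893237-75893265, minus strand: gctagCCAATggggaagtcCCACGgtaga

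The letters TGACGTG, the core of the unfolded protein response element, occurred in 1 of the 29 members (3.45%), against 2.22% of all genes. That member was Hspa5, which thus held both elements.
Hspa5, chr2:34771927-34771945, plus strand: tagcaaTGACGTGagttgc
The half-site pair of C/EBP and ATF proteins (CARE), read as TGATG, any base and AA, occurred in 4 of the 29 members (13.8%) and in 4.51% of all genes. All 4 are genes that the integrated stress response is known to induce, and their sites are shown with the motif in capitals. The Trib3 site began at position 14 within the gene, and the other 3 lay before the start.
Herpud1, chr8:94386311-94386330, minus strand: gcgggcTGATGcAAcccgcc
Trib3, chr2:152344033-152344052, plus strand: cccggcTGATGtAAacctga
Chac1, chr2:119351043-119351062, minus strand: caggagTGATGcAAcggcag
Asns, chr6:7693219-7693238, minus strand: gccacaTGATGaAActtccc
CCAAT alone, which is also part of the ERSE, was present in 23 of the 29 members (79.3%) and in 41.1% of all genes. These matches describe letters in a window and do not show that a factor was bound.

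The values are rlog values, a log2 scale that is corrected for library size but not for gene length, so levels are compared between libraries and not between genes. Values per library are listed in the order of mice 25, 69, 87 and 88 for WT and 2, 3, 55 and 62 for Cpeb4-/-. Counts and depth are not part of the table. The 7 macrophage markers were all expressed, and their summed linear values ranged from 384797 to 463612 in Cpeb4-/- and from 482801 to 608462 in WT libraries at 0 hr. At 6 hr these sums were 428429 to 504029 in Cpeb4-/- and 530341 to 582624 in WT. Most of this sum is Lyz2, with a mean rlog of 18.33 in WT and 17.95 in Cpeb4-/- at 6 hr. Also lower in Cpeb4-/- at 6 hr were Csf1r (15.41 and 15.16), Cd68 (14.57 and 14.31), Fcgr1 (15.46 and 15.18) and Mertk (10.37 and 10.09). Adgre1 was at 16.26 and 16.24 and Itgam at 15.01 and 15.12. The lower sums in Cpeb4-/- stand beside every genotype difference given here, and their part in these differences was not tested. Neutrophil, T cell, B cell, dendritic cell and fibroblast lists summed to at most 274, 156, 99.5, 153 and 67.3, and the erythroid and mast cell lists to at most 7.6 and 4.1, with Hba-a1, Hbb-bs, Tpsb2 and Mcpt4 at 0 in all libraries. In bulk RNA, fewer cells of a type and less RNA per cell cannot be told apart. Cpeb4 itself, summed over the gene with the exons that remain, lay between 10.09 and 10.67 in WT and between 8.74 and 9.66 in Cpeb4-/- after 6 hr of LPS, lower by −1.27 ± 0.186 (SE, limma adjusted p = 0.00114). At 0, 1, 3 and 9 hr its difference of −0.24, 0.37, −0.55 and −0.31 did not pass, so at those times the genotype rests on the label.

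The first comparison asked how the members changed after LPS within each genotype, against the untreated cells of that genotype (limma on rlog values, Benjamini-Hochberg adjusted p under 0.05 over all genes tested). This main fit did not pair the libraries of a mouse, and the fit with the mouse as a block was an alternative. The main changes were a rise of both eIF2 phosphatase subunits, of Hspa5, Xbp1, Atf4, Syvn1 and Herpud1, a fall of the sensor Eif2ak3, and a fall followed by a rise of Ddit3. In WT, 9 members were higher and 1 lower at 1 hr, against 17.3% and 16.6% of all 13100 genes tested. At 3 hr 14 were higher and 7 lower (all genes 32.5% and 35.3%), at 6 hr 21 and 5 (38.7% and 39.2%), and at 9 hr 23 and 2 (35.9% and 35.6%). In Cpeb4-/-, 17 were higher and 1 lower at 1 hr (23.8% and 20% of 13116 genes), 17 and 8 at 3 hr (34.4% and 36.9%), 25 and 5 at 6 hr (39% and 40.1%) and 26 and 2 at 9 hr (36.4% and 36.4%). At 9 hr the members had a median change of 0.38 (WT) and 0.36 (Cpeb4-/-), beside −0.0044 and −0.0079 over all genes. With the mouse as a block, 17 rather than 9 members were higher in WT at 1 hr. Without WT mouse 25 that count was 5, and without Cpeb4-/- mouse 62 the count of rises in Cpeb4-/- at 1 hr was 11. The shares over all genes above belong to the main fit, and those of these other fits are not given here. The 4 contrasts of a genotype share their 0 hr libraries and are therefore not independent of each other.

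These counts depend on how the libraries are scaled. After LPS the upper end of the rlog values spread out, with a mean 95th percentile of 12.46 at 0 hr and 13.24 at 6 hr in WT and of 12.45 and 13.15 in Cpeb4-/-. When every library was given the same distribution (quantile normalization), 15 members were higher and 10 lower in WT at 9 hr, beside 4556 higher and 4639 lower of 13107 genes. At 3 hr in WT 6 members were higher and 18 lower, beside 3744 higher and 5177 lower of all genes. At 1 hr the share of rises among all calls went from 51.0% to 38.0% in WT and from 54.3% to 38.1% in Cpeb4-/-. In WT, 6, 13, 15 and 16 members were called in the same direction on both scales at the 4 times in turn. In the text that follows, rose and fell without a further remark refer to such calls. The chaperones Hsp90b1, Calr and Canx, with the mannosidase-like lectin Edem1 and the degradation adaptor Sel1l, were called higher at 6 and 9 hr in WT and had a negative value after quantile normalization, so no direction is given for them.

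**Figure D1:**
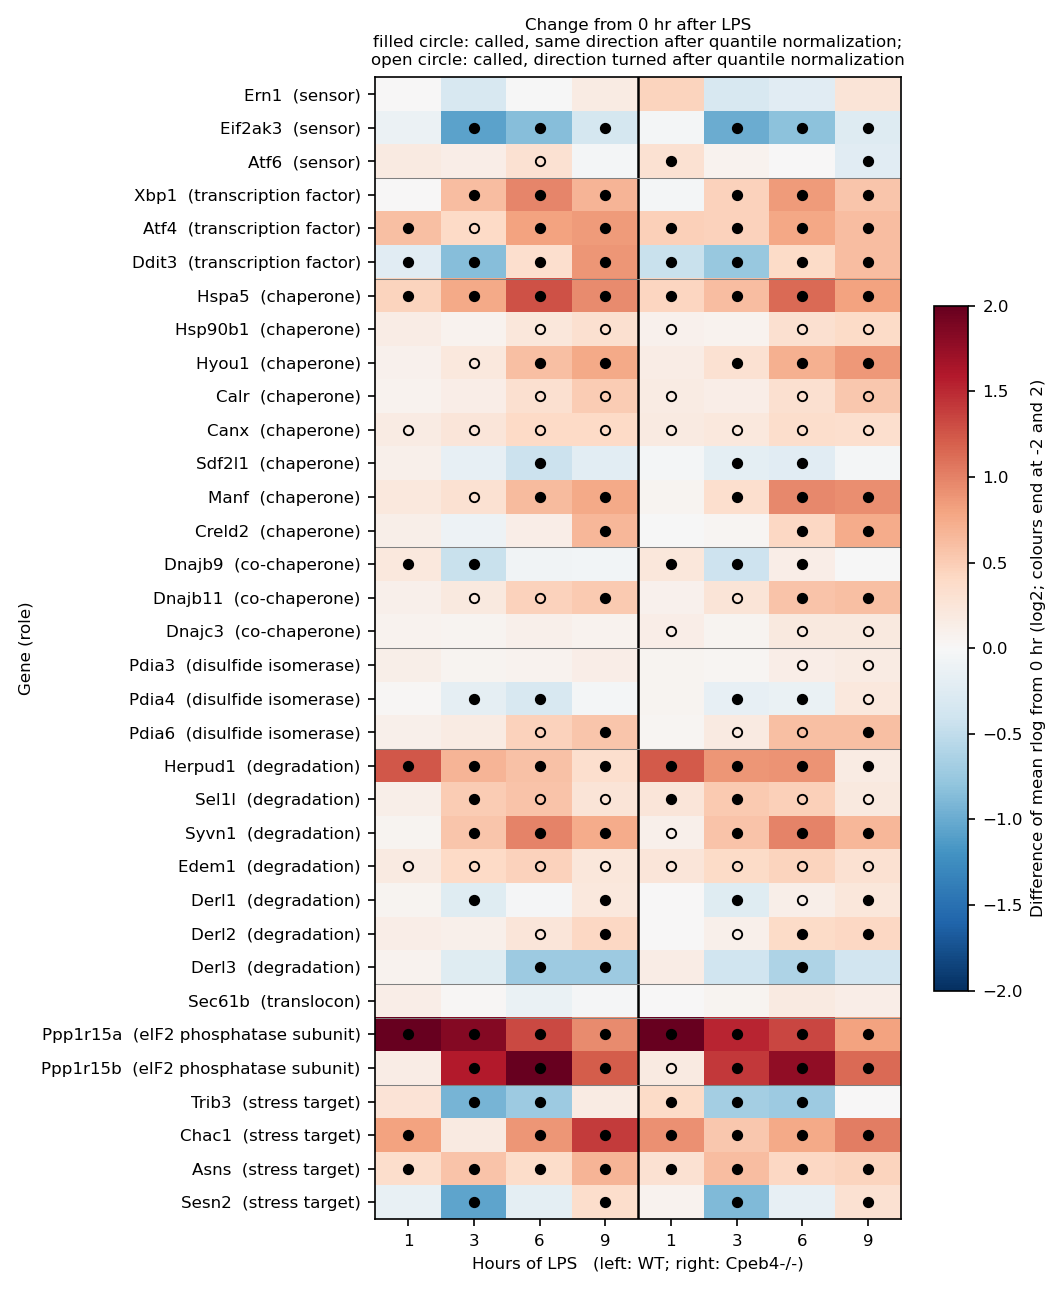
Change in rlog (log2) after LPS against 0 hr for the 34 members, in WT and Cpeb4-/- at 1, 3, 6 and 9 hr, with colours ending at −2 and 2; a filled circle marks a change called by limma that kept its direction after quantile normalization, and an open circle a called change that turned. Ppp1r15a at 1 hr (3.37 in WT) lies beyond the end of the colours, Eif2ak3 is lower at 3 and 6 hr in both genotypes, and the open circles gather on Hsp90b1, Calr, Canx and Edem1.

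Among the sensors, Eif2ak3 fell in both genotypes from 3 hr on, Atf6 changed in both directions in Cpeb4-/-, and Ern1 did not pass on the deposited scale. Eif2ak3 was at 9.34, 9.18, 9.03 and 9.24 in the 4 WT libraries at 0 hr and at 8.04, 8.18, 7.95 and 8.31 at 3 hr. In Cpeb4-/- it was at 9.22, 9.37, 9.25 and 9.43 at 0 hr and at 8.28, 8.44, 8.19 and 8.42 at 3 hr. In both genotypes every library at 3 hr lay below every library at 0 hr, and the fall was −1.08 ± 0.094 in WT (SE, limma adjusted p = 2.4e-09) and −0.99 ± 0.067 in Cpeb4-/- (3e-11). It was smaller at 9 hr, with −0.34 in WT and −0.26 in Cpeb4-/-. A predicted antisense transcript, Gm43292, covers 8.05% of the exon bases of Eif2ak3, and the library kit does not mark strand. Ern1 varied widely between mice, at 8.55, 8.24, 7.76 and 8.21 in WT at 0 hr, at 8.59, 8.57, 7.74 and 7.87 at 1 hr and at 8.40, 9.05, 8.81 and 9.28 in Cpeb4-/- at 1 hr. None of its 8 changes passed in limma (−0.32 to 0.45), while after quantile normalization the one in Cpeb4-/- at 1 hr did (0.51, adjusted p = 0.033). Atf6 rose by 0.31 in WT at 6 hr on the deposited scale (SE 0.077, limma adjusted p = 0.0011) but was at −0.14 after quantile normalization, and in Cpeb4-/- it rose by 0.31 at 1 hr and fell by 0.22 at 9 hr on both scales.

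All 3 transcription factors were higher at 6 and 9 hr, by different courses. Xbp1, the target of IRE1, was at 11.65, 11.57, 11.65 and 11.77 in WT at 0 hr and at 12.55, 12.50, 12.70 and 12.75 at 6 hr, without overlap. Its rise was 0.62 at 3 hr, 0.97 ± 0.059 at 6 hr (SE, limma adjusted p = 3.9e-12) and 0.68 at 9 hr in WT, and 0.46, 0.85 and 0.55 in Cpeb4-/-. At 3 hr in Cpeb4-/- the rise of Xbp1 did not pass after quantile normalization (0.047).

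Atf4, the central factor of the integrated stress response, was at 12.07, 12.08, 12.21 and 12.09 in WT at 0 hr and already at 12.63, 12.64, 12.82 and 12.76 at 1 hr. It had risen by 0.60 ± 0.054 at 1 hr (SE, limma adjusted p = 1.6e-08) and by 0.84 at 9 hr in WT, and by 0.47 and 0.62 in Cpeb4-/-. Between these times, at 3 hr, its value of 0.40 in WT turned to −0.074 after quantile normalization.

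Ddit3, which encodes the stress factor CHOP, changed in both directions. In WT it was at 9.19, 9.40, 9.47 and 9.27 at 0 hr, at 8.54, 8.67, 8.41 and 8.33 at 3 hr and at 10.14, 10.40, 10.22 and 10.12 at 9 hr. The libraries of 3 hr lay below and those of 9 hr above all libraries of 0 hr. In WT the fall at 3 hr was −0.85 ± 0.078 (SE, limma adjusted p = 6.4e-09) and the rise at 9 hr 0.89 (2.7e-09), and in Cpeb4-/- these were −0.76 and 0.62. A fall of 0.22 at 1 hr in WT (adjusted p = 0.032) was lost without any one of the WT mice 25, 88, 69 or 87, with adjusted p-values of 0.0594, 0.0681, 0.122 and 0.0821. Ddit3 shares 3.97% of its exon bases with Mars on the other strand.

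**Figure D2:**
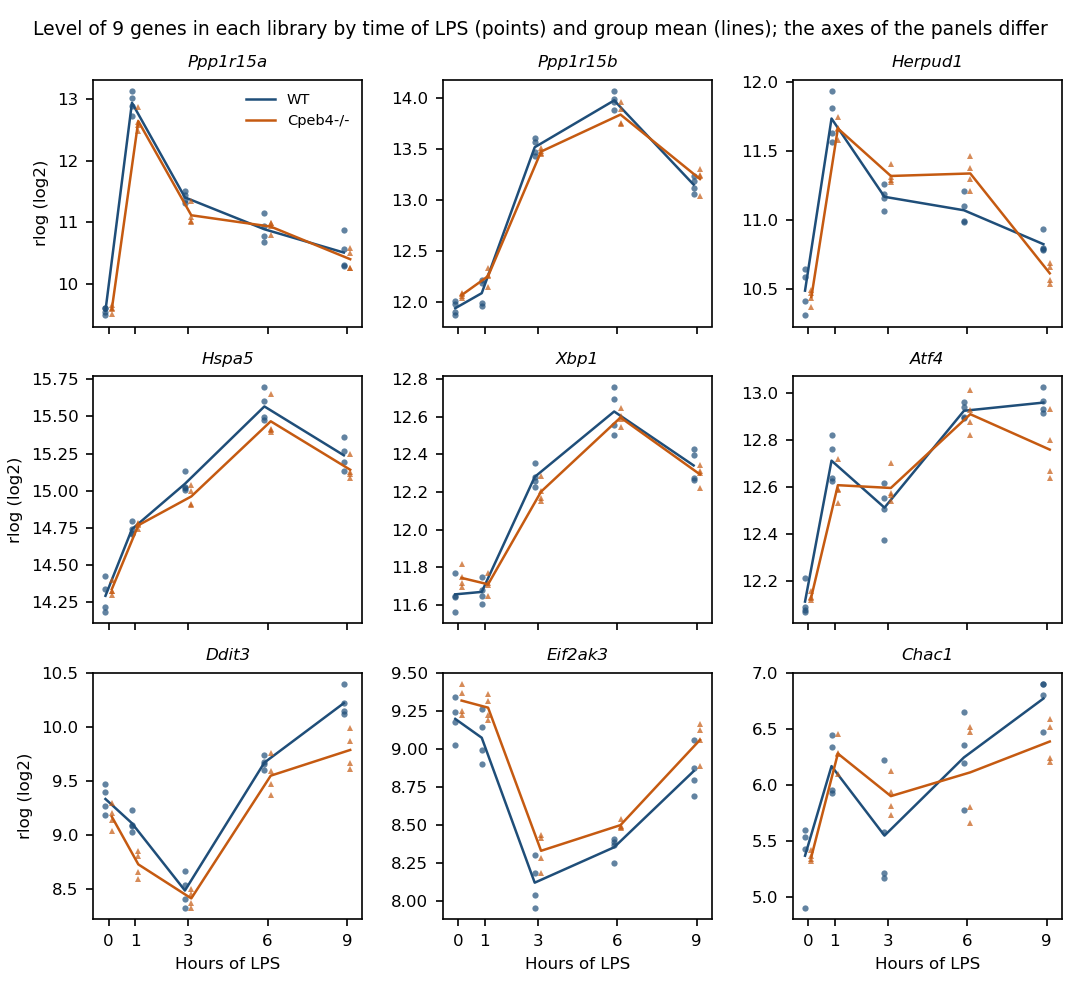
rlog values (log2) of 9 members against hours of LPS in WT and Cpeb4-/-, with 1 point per library (4 per genotype and time) and lines through the group means. Ppp1r15a and Herpud1 are highest at 1 hr, Ppp1r15b, Hspa5 and Xbp1 at 6 hr, and Chac1 and Ddit3 at 9 hr in WT, while Eif2ak3 is lowest at 3 hr.

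The largest changes of all members were in the eIF2 phosphatase subunits, which direct dephosphorylation of eIF2 and so act against PERK. Ppp1r15a, the inducible subunit, was at 9.49, 9.61, 9.61 and 9.55 in WT at 0 hr and at 12.89, 12.73, 13.13 and 13.02 at 1 hr. In Cpeb4-/- it was at 9.65, 9.61, 9.59 and 9.51 and then at 12.87, 12.49, 12.58 and 12.63. Its rise at 1 hr was 3.37 ± 0.112 in WT (SE, limma adjusted p = 1.7e-15) and 3.05 ± 0.087 in Cpeb4-/-, and at 9 hr it was 0.94 and 0.81.

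Ppp1r15b, the constitutive subunit, came later. It was at 12.002, 11.97, 11.87 and 11.90 in WT at 0 hr and at 13.96, 13.99, 13.88 and 14.06 at 6 hr. In Cpeb4-/- it went from 12.04, 12.08, 12.07 and 12.06 to 13.75, 13.89, 13.96 and 13.74. Its rise was 1.58 at 3 hr, 2.04 ± 0.062 at 6 hr (SE, limma adjusted p = 4.7e-17) and 1.21 at 9 hr in WT, and 1.41, 1.77 and 1.14 in Cpeb4-/-, whereas at 1 hr its 0.15 in WT did not pass. A predicted transcript on the other strand, Gm26616, covers 11.4% of its exon bases. For both subunits no library after LPS at the peak overlapped with the untreated ones.

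Among the chaperones, Hspa5 changed most. Hspa5 encodes BiP, the most abundant ER chaperone, which binds the sensors in unstressed cells. It was at 14.22, 14.19, 14.34 and 14.42 in WT at 0 hr and at 15.50, 15.48, 15.60 and 15.69 at 6 hr, and in Cpeb4-/- at 14.30, 14.33, 14.40 and 14.33 and then at 15.41, 15.39, 15.65 and 15.42. The rise at 6 hr was 1.27 ± 0.062 in WT (SE, limma adjusted p = 9.8e-14) and 1.13 ± 0.053 in Cpeb4-/-, and after quantile normalization 0.45 and 0.38. The groups did not overlap, and within WT mice the change at 6 hr ranged only from 1.26 to 1.29. Its smaller changes at 1 and 3 hr in WT, 0.45 and 0.75, were called on the deposited scale but not after quantile normalization (0.015 and 0.087).

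Of the other chaperones, Hyou1, an exchange factor of BiP, rose by 0.61 at 6 hr and 0.76 at 9 hr in WT and by 0.71 and 0.87 in Cpeb4-/-. Manf, a secreted ER protein that binds BiP, rose by 0.76 at 9 hr in WT and 0.93 in Cpeb4-/-, and Creld2, a disulfide isomerase-like ER protein, by 0.66 and 0.75. Sdf2l1, a partner of ER co-chaperones, was lower at 6 hr, by −0.43 ± 0.128 in WT (SE, limma adjusted p = 0.0049) and −0.22 in Cpeb4-/-. The Cpeb4-/- value of Sdf2l1 did not pass without mouse 55 (adjusted p = 0.0618). Hsp90b1, the ER member of the HSP90 family, was at 0.32 in WT at 9 hr and at −0.22 after quantile normalization, and Calr and Canx, the lectin chaperones of glycoproteins, were at 0.51 and 0.39 against −0.11 and −0.21. On the deposited scale 7 of the 8 chaperones were thus called higher at 9 hr in each genotype. After quantile normalization Hspa5, Hyou1, Manf and Creld2 kept this rise and Hsp90b1, Calr and Canx did not, so the split rests on the scaling. At 0 hr in WT the means of Hsp90b1, Calr and Canx (14.48, 13.50 and 13.88) lay above the mean 95th percentile of 12.46. That of Hspa5 (14.29) did so too.

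The co-chaperones and isomerases differed from gene to gene in the sign and size of their changes. Dnajb11, a J-domain partner of BiP, rose by 0.53 ± 0.044 at 9 hr in WT (SE, limma adjusted p = 1.2e-09) and by 0.61 in Cpeb4-/-. Dnajb9, which targets substrates of BiP and restrains IRE1, fell at 3 hr by −0.44 in WT and −0.42 in Cpeb4-/-. Dnajc3, a luminal J-domain protein, was at 0.06 to 0.09 in WT, and none of these 4 values passed. Pdia3, a glycoprotein-specific isomerase, did not pass in WT (0.06 to 0.14) and was called lower at all 4 times after quantile normalization, by −0.23 to −0.86. Pdia4 was lower in WT at 3 hr (−0.17) and 6 hr (−0.33 ± 0.059, SE, limma adjusted p = 4.2e-05) on both scales. The 3 hr call of Pdia4 was lost without WT mouse 25 or 87, with adjusted p-values of 0.0645 and 0.0676. Pdia6 was higher at 6 hr (0.46) and 9 hr (0.55) in WT, but was at −0.29 and 0.036 after quantile normalization.

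In ER-associated degradation, Herpud1 and Syvn1 rose by the widest margins. Herpud1, a membrane scaffold of the degradation complex, was at 10.41, 10.31, 10.59 and 10.64 in WT at 0 hr and at 11.63, 11.56, 11.93 and 11.81 at 1 hr, and in Cpeb4-/- it went from 10.47, 10.37, 10.49 and 10.43 to 11.75, 11.58, 11.66 and 11.66. Its rise was thus largest at the first time, 1.25 ± 0.081 in WT (SE, limma adjusted p = 1.1e-10) and 1.22 ± 0.053 in Cpeb4-/-, without overlap. At 3 and 6 hr it was 0.68 and 0.58 in WT and 0.88 and 0.90 in Cpeb4-/-. At 9 hr, where Herpud1 was at 0.34 and 0.17 on the deposited scale, it no longer passed after quantile normalization in either genotype.

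Syvn1, the ubiquitin ligase HRD1 of this pathway, rose by 0.55 at 3 hr, 1.00 ± 0.039 at 6 hr (SE, limma adjusted p = 2.3e-15) and 0.73 at 9 hr in WT, with 0.57, 0.99 and 0.67 in Cpeb4-/-. Of the derlins, channel-forming membrane proteins of retrotranslocation, Derl1 fell at 3 hr by −0.24 in WT and −0.25 in Cpeb4-/-. Derl2 was at 0.41 at 9 hr in both genotypes, and in WT this did not pass after quantile normalization (0.12). Derl3, with rlog values from 2.84 to 4.34, fell by −0.72 ± 0.197 at 6 hr in WT (SE, limma adjusted p = 0.0023). Sec61b, a subunit of the translocon, had changes between −0.13 and 0.19, and none passed.

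The genes downstream of ATF4 did not share one course. Chac1, which degrades glutathione, was at 5.54, 5.60, 5.43 and 4.90 in WT at 0 hr and at 6.81, 6.90, 6.90 and 6.48 at 9 hr, and in Cpeb4-/- at 5.34, 5.36, 5.32 and 5.42 and then at 6.59, 6.20, 6.52 and 6.24. It rose at 9 hr by 1.40 ± 0.219 in WT (SE, limma adjusted p = 9e-06) and by 1.03 ± 0.157 in Cpeb4-/-, without overlap, and at 1 hr by 0.80 and 0.92. Asns, asparagine synthetase, rose at all 4 times, by 0.35, 0.57, 0.37 and 0.67 in WT and 0.30, 0.61, 0.41 and 0.44 in Cpeb4-/-. Its call at 1 hr in WT was lost without mouse 25 or 87 (adjusted p = 0.0731 and 0.0655).

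Trib3, a pseudokinase that restrains ATF4 and CHOP, and Sesn2, a sestrin of the amino acid response, went the other way at 3 hr. Trib3 fell by −0.93 ± 0.147 in WT (SE, limma adjusted p = 1.1e-05) and −0.67 in Cpeb4-/-, and Sesn2 by −1.06 ± 0.146 (1.9e-06) and −0.88. At 9 hr Trib3 was at 0.17 and 0.01, not passing, and Sesn2 was called higher by 0.36 in WT and 0.30 in Cpeb4-/-. The Sesn2 call at 9 hr was lost in WT without mouse 88, 69 or 87 (adjusted p = 0.0919, 0.0557 and 0.123). In Cpeb4-/- the Sesn2 value at 9 hr was 0.16 without mouse 55 (adjusted p = 0.174). At 3 hr Ddit3, Trib3, Sesn2 and Eif2ak3 were thus all lower in both genotypes while Ppp1r15a, Ppp1r15b, Herpud1, Syvn1 and Asns were higher.

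By mean rlog, 16 of the 34 members were highest at 9 hr in WT, 9 at 6 hr and 8 at 1 hr, and 21 were lowest at 0 hr. In Cpeb4-/- the members were highest at 9 hr in 13 cases, at 6 hr in 10 and at 1 hr in 7, and 25 members were highest at the same time in both genotypes. The courses are also given by promoter element, as a description with no test. Over all genes, 17.3%, 32.5%, 38.7% and 35.9% were higher at 1, 3, 6 and 9 hr in WT. Of the 4 members with a CARE, 3 were higher at 1 hr in WT, with a median of 0.57, against 6 of the 25 without one, with a median of 0.10. After quantile normalization the 3 with a CARE, Herpud1, Chac1 and Asns, were still called higher at 1 hr, and of the 6 without one Atf4 and Ppp1r15a were. On the deposited scale 2, 3 and 3 of the 4 with a CARE were higher at 3, 6 and 9 hr and 1, 1 and 0 lower. Of the 25 without one, 9, 14 and 16 were higher and 5, 4 and 2 lower. The medians were 0.37, 0.48 and 0.51 with a CARE and 0.07, 0.24 and 0.36 without. At 9 hr in WT 7 of the 9 members with an ERSE were higher and 1 lower (median 0.51), against 12 and 1 of the 20 without (median 0.30). At 1, 3 and 6 hr 2, 3 and 6 of the 9 were higher and 0, 0 and 1 lower. Of the 20 without an ERSE, 7, 8 and 11 were higher and 1, 6 and 4 lower at these times. The medians were 0.10, 0.13 and 0.32 with an ERSE and 0.12, 0.08 and 0.29 without. Since 3 of the ERSE genes are Hsp90b1, Calr and Canx, which turned under quantile normalization, the ERSE counts hold on the deposited scale only.

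Further genes of the same pathways, none of them among the members, were counted from lists by function. At 9 hr in WT 10 of 14 other degradation genes were higher and 0 lower, 10 of 18 genes of ER import were higher and 1 lower, and 6 of 16 further folding genes were higher and 4 lower. Of 13 genes of eIF2 and its kinases 11 were higher and 1 lower, of 11 other regulators 5 and 1, and of 28 other ATF4 targets 18 and 4. Over all 13100 genes, 35.9% were higher and 35.6% lower in the same comparison. After quantile normalization the import list turned to 4 higher and 11 lower and the folding list to 5 and 8, whereas the degradation list was at 8 and 3, the eIF2 list at 8 and 1, the regulators at 8 and 1 and the ATF4 targets at 16 and 5. The largest rises and falls of these lists kept their direction and call under all alternatives run for them. Slc7a11, the cystine transporter, rose by 2.51 ± 0.194 (SE, limma adjusted p = 3.2e-10), Serp1, a translocon-associated protein, by 1.75, Eif2ak2, the double-stranded RNA kinase of eIF2, by 1.33, Traf2, an adaptor of IRE1, by 1.29, Ero1l, an oxidase of disulfide isomerases, by 0.91 and Nploc4, a cofactor of the VCP segregase, by 0.90. The falls were in Vldlr (−0.83), Erp29 (−0.81), Eif2ak4, the amino acid-sensing kinase of eIF2 (−0.50), Sec11c (−0.47) and Mbtps1, a protease that cleaves ATF6 (−0.31).

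The second comparison asked which members differed between Cpeb4-/- and WT BMDMs at the same time of LPS. At 6 hr several ER folding genes were higher in Cpeb4-/-, by 0.22 to 0.35 on the log2 scale, and between 0 and 3 members were called at the other times. At 0 hr, 0 members were called, with 3 at an unadjusted p under 0.05, while 0.741% of all genes were called higher and 0.565% lower. At 1 hr 0 were higher and 1, Ddit3, was lower (all genes 0.976% and 0.938%), and 9 had an unadjusted p under 0.05. At 3 hr 0 were called, with 8 at an unadjusted p under 0.05 (1.81% and 1.87%). At 6 hr 7 members were higher and 1 was lower, that is 20.6% and 2.94% of the members against 6.4% and 9.92% of the 13039 genes tested. At 9 hr 1 was higher and 2 were lower (4.69% and 3.22%). The median difference of the members at 6 hr was 0.04, beside −0.02 over all genes.

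The 7 members higher at 6 hr were Hsp90b1, Manf, Creld2, Pdia4, Pdia6, Herpud1 and Sec61b, which are chaperones, isomerases, a degradation scaffold and the translocon subunit. None of the transcription factors, co-chaperones, phosphatase subunits or the 4 members grouped as downstream of ATF4 was called at 6 hr. Herpud1, grouped under degradation, also holds a CARE. The number of rises depended on 1 mouse or setting at a time, being 3 without WT mouse 25, 4 without Cpeb4-/- mouse 2 or WT mouse 69 and 10 without WT mouse 88, and 2 with no filter on low expression or without the variance trend. Quantile normalization gave 11, adding Hyou1, Calr, Pdia3 and Edem1, and moved the share of rises among all genes called from 39.2% to 50.8%. Pdia4 and Creld2 passed under all 14 alternatives.

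Among the members called higher at 6 hr, Pdia4, a disulfide isomerase, had the smallest adjusted p. At 6 hr it was at 10.92, 10.83, 11.03 and 11.03 in WT and at 11.27, 11.33, 11.29 and 11.31 in Cpeb4-/-, and at 9 hr at 11.16, 11.13, 11.30 and 11.36 and at 11.61, 11.69, 11.61 and 11.69. The genotypes did not overlap at either time. The difference was 0.35 ± 0.048 at 6 hr (SE, limma adjusted p = 0.000764) and 0.41 ± 0.060 at 9 hr (adjusted p = 0.00477). Within the batches it was 0.35 and 0.36 at 6 hr and 0.42 and 0.39 at 9 hr. Pdia4 was already higher without overlap at 0 hr, with 11.25, 11.24, 11.28 and 11.33 in WT and 11.42, 11.44, 11.40 and 11.47 in Cpeb4-/-, but that difference of 0.16 did not pass (adjusted p = 0.095).

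Creld2 at 6 hr was at 10.11, 10.05, 10.18 and 10.18 in WT and at 10.38, 10.45, 10.38 and 10.70 in Cpeb4-/-, without overlap. The difference was 0.35 ± 0.068 (SE, limma adjusted p = 0.00533), with 0.43 in batch 1 and 0.26 in batch 2, and its adjusted p over the alternatives was at most 0.0425. At 9 hr it was 0.15 and did not pass.

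Manf at 6 hr was at 12.04, 11.92, 12.23 and 12.23 in WT and at 12.38, 12.29, 12.31 and 12.55 in Cpeb4-/-, a difference of 0.28 ± 0.075 (SE, limma adjusted p = 0.026). Its groups did not overlap, and the batches gave 0.28 and 0.27. The call was lost without WT mouse 25 or 69 or Cpeb4-/- mouse 62 or 2, with adjusted p-values of 0.0699, 0.0703, 0.0632 and 0.0604. Other genes on the opposite strand, 4930524O07Rik and Dcaf1, share 4.71% and 4.14% of its exon bases.

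Hsp90b1 at 6 hr was at 14.66, 14.55, 14.74 and 14.83 in WT and at 14.92, 14.90, 14.92 and 14.92 in Cpeb4-/-, a difference of 0.22 ± 0.057 (SE, limma adjusted p = 0.0218). Its Cpeb4-/- libraries were above all WT libraries at 0, 3, 6 and 9 hr, with differences of 0.12, 0.12, 0.22 and 0.18, of which the one at 6 hr passed. Without WT mouse 25 or 69 or Cpeb4-/- mouse 2 the adjusted p at 6 hr was 0.0588, 0.0608 and 0.0586. A transcribed pseudogene, 1810014B01Rik, overlaps 10.3% of its exon bases on the other strand.

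Pdia6 at 6 hr was at 12.94, 12.82, 13.11 and 13.10 in WT and at 13.20, 13.21, 13.21 and 13.31 in Cpeb4-/-, a difference of 0.24 ± 0.062 (SE, limma adjusted p = 0.0193) without overlap, and 0.241 and 0.245 within the batches. It was lost without WT mouse 25 (adjusted p = 0.0538). Sec61b at 6 hr was at 9.59, 9.48, 9.69 and 9.74 in WT and at 9.88, 9.88, 9.73 and 9.99 in Cpeb4-/-, so that 1 Cpeb4-/- library fell within the WT range. Its difference of 0.25 ± 0.068 (SE, limma adjusted p = 0.0277) was lost without mouse 3, 25, 62, 2 or 69, with adjusted p-values between 0.0637 and 0.0798, and in the fit to all 40 libraries (0.161).

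**Figure D3:**
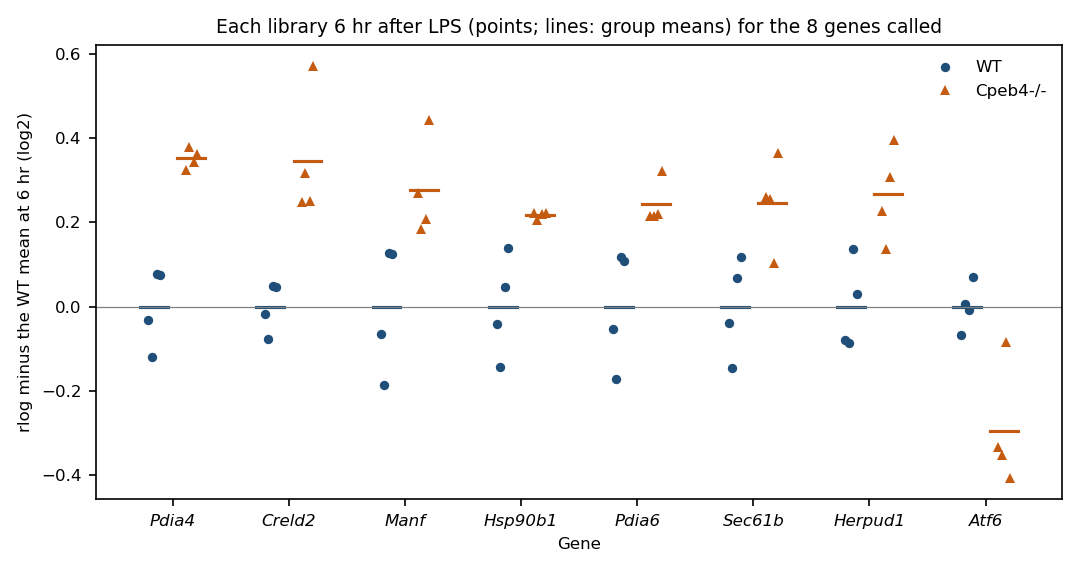
rlog at 6 hr of LPS minus the WT mean at 6 hr (log2) for the 8 members called between genotypes at that time, with 1 point for each of the 4 WT and 4 Cpeb4-/- libraries. The Cpeb4-/- points lie above all WT points for Pdia4, Creld2, Manf, Hsp90b1, Pdia6 and, by a margin too narrow to see, Herpud1, below them for Atf6, and overlap with them for Sec61b.

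Herpud1 differed in opposite directions at the late times. At 6 hr it was at 10.99, 10.98, 11.21 and 11.10 in WT and at 11.30, 11.21, 11.38 and 11.47 in Cpeb4-/-, a difference of 0.27 ± 0.063 (SE, limma adjusted p = 0.0139). At 9 hr it was at 10.79, 10.78, 10.94 and 10.79 in WT and at 10.66, 10.57, 10.69 and 10.54 in Cpeb4-/-, a difference of −0.21 ± 0.056 (adjusted p = 0.0465). The genotypes did not overlap at either time, by a narrow margin at 6 hr, where the lowest Cpeb4-/- library was at 11.20795 and the highest WT library at 11.20765. The batches gave 0.29 and 0.24 at 6 hr and −0.24 and −0.18 at 9 hr. The change between 6 and 9 hr was not tested directly. The call at 9 hr was lost without any one of the mice 3, 25, 62, 88, 55, 69 and 87 (adjusted p between 0.0672 and 0.135). It was also lost with no filter (limma adjusted p = 0.0744) and without the variance trend (0.0796). The call at 6 hr passed without each mouse in turn but not with no filter (0.0748) or without the variance trend (0.0518).

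Atf6 was the one member lower in Cpeb4-/- at 6 hr. It was at 11.60, 11.68, 11.66 and 11.74 in WT and at 11.34, 11.32, 11.59 and 11.26 in Cpeb4-/-, without overlap. The difference was −0.29 ± 0.063 (SE, limma adjusted p = 0.00871), −0.38 in batch 1 and −0.21 in batch 2, and it passed under all alternatives except no filter on low expression (adjusted p = 0.0569). At 9 hr the Cpeb4-/- libraries were again below all WT libraries (−0.17), and this did not pass. Of the other sensors at 6 hr, Eif2ak3 was at 0.15 (adjusted p = 0.091), with every Cpeb4-/- library above all WT libraries, and Ern1 was at 0.03, and neither passed.

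Ddit3 was lower in Cpeb4-/- at 1 hr and 9 hr. At 1 hr it was at 9.08, 9.03, 9.23 and 9.09 in WT and at 8.86, 8.59, 8.81 and 8.66 in Cpeb4-/-, and at 9 hr at 10.14, 10.40, 10.22 and 10.12 and at 9.99, 9.61, 9.87 and 9.67. The genotypes did not overlap at these times. The difference was −0.38 ± 0.076 at 1 hr (SE, limma adjusted p = 0.0393) and −0.43 ± 0.092 at 9 hr (adjusted p = 0.0205), with −0.46 and −0.30 within the batches at 1 hr and −0.49 and −0.38 at 9 hr. At 1 hr the call was lost without mouse 3, 25, 62, 88, 55 or 87 (adjusted p between 0.0613 and 0.139), and at 9 hr without mouse 3, 25, 62, 69 or 87 (0.0505 to 0.0634). With no filter on low expression the calls at 1 and 9 hr were lost as well (limma adjusted p = 0.0863 and 0.071). Without the variance trend the call at 1 hr was lost (0.0582). The other transcription factors did not pass at 9 hr, with Atf4 at −0.20 (adjusted p = 0.09) and Xbp1 at −0.05, and neither did Chac1 at −0.38 (adjusted p = 0.086). With batch as a covariate Atf4 and Chac1 passed at 9 hr (limma adjusted p = 0.0273 and 0.0223).

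At 9 hr the counts rested on Cpeb4-/- mouse 2, without which 8 members were higher, Ern1 (0.52) and Eif2ak3 (0.26) among them, and 5 lower, Atf4 (−0.26) and Chac1 (−0.45) among them. At 3 hr 5 members were higher and 1 lower without WT mouse 88, and 1 lower without Cpeb4-/- mouse 55. At 1 hr 2 members were higher and 3 lower without WT mouse 69. Of the phosphatase subunits, Ppp1r15a was at −0.30 at 1 hr and −0.29 at 3 hr (adjusted p = 0.095 and 0.07), and at 3 hr it was called without mouse 88 (−0.32, adjusted p = 0.0242) or without mouse 55 (−0.37, 0.0241).

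**Figure D4:**
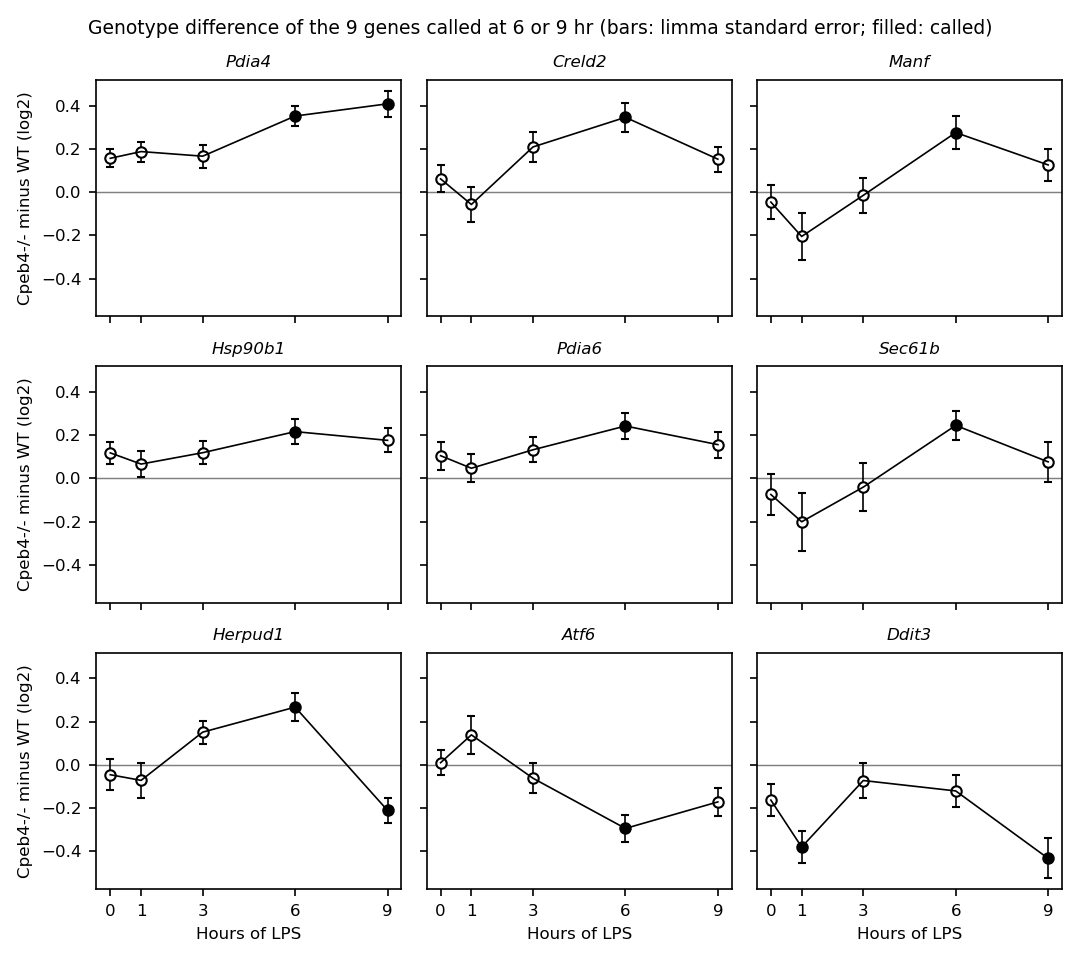
Cpeb4-/- minus WT difference in rlog (log2) with its limma standard error against hours of LPS for 9 members, n = 4 libraries per genotype and time, filled where limma called the difference. Pdia4 stays above 0 at all times and is filled at 6 and 9 hr, Herpud1 is filled above 0 at 6 hr and below 0 at 9 hr, and Ddit3 is below 0 throughout and filled at 1 and 9 hr.

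Whether a difference between genotypes departed from the one before LPS was tested over all 40 libraries. At 9 hr 1 member was called, Pdia4, whose difference was larger than at 0 hr by 0.25 ± 0.067 (SE, limma adjusted p = 0.0386). This call was lost after quantile normalization (0.20, adjusted p = 0.127), without the variance trend (0.0502), and without any one of the mice 3, 25, 62, 2, 55, 69 and 87 (adjusted p between 0.0526 and 0.159). At 1, 3 and 6 hr limma called 0 members, with 1, 3 and 7 at an unadjusted p under 0.05, and at 9 hr 3 members had such a p. Of all 13103 genes 0.00763%, 0.206%, 2.94% and 1.76% were called at 1, 3, 6 and 9 hr. With each mouse as a block, 3 members were called at 6 hr, Pdia4 (0.20, limma adjusted p = 0.0179), Herpud1 (0.31, 0.0104) and Ppp1r15b (−0.27, 0.00725). Without WT mouse 88, Dnajb9 was called at 6 hr (0.31, limma adjusted p = 0.0245). For the other members called at 6 or 9 hr, the difference after LPS is thus not shown to exceed the one in untreated cells in the unblocked test.

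At 6 hr 3 of the 9 members with an ERSE, Hsp90b1, Creld2 and Pdia6, were higher in Cpeb4-/-, with a median of 0.11, and 3 of the 20 matched members without one, with a median of 0.04. Hspa5, which holds both an ERSE and TGACGTG, was at −0.10 at 6 hr and 9 hr and passed at neither. Hspa5 was therefore the member with the largest rise after LPS among the chaperones, without a called difference between genotypes.

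In the wider pathway at 6 hr, 4 of 16 further folding genes were higher in Cpeb4-/- and 1 lower, 3 and 1 of 18 import genes, 0 of 14 degradation genes (with 0 lower), 2 and 2 of 11 regulators, 3 and 0 of 13 genes of eIF2 control and 5 and 2 of 27 other ATF4 targets. Over all genes, 6.4% were higher and 9.92% lower at 6 hr. After quantile normalization import was at 5 and 0, degradation at 1 and 0, the regulators at 2 and 1 and the ATF4 targets at 7 and 1, with the folding and eIF2 counts as before. On that scale 1027 of 13071 genes were higher and 996 lower. Slc7a11 was at 10.92, 11.13, 10.90 and 10.95 in WT and at 11.80, 12.19, 11.77 and 11.66 in Cpeb4-/-, a difference of 0.88 ± 0.096 (SE, limma adjusted p = 0.000221). Creb3l1, a membrane-bound transcription factor related to ATF6, was at 7.97, 7.90, 8.14 and 7.72 and at 8.42, 8.61, 8.49 and 8.46, a difference of 0.56 ± 0.084 (adjusted p = 0.0012). Ero1l was higher by 0.37, Eif2ak4 by 0.36 and Spcs3 by 0.25, and Gdf15 was lower by −0.43, Sil1 by −0.22, Traf2 by −0.21 and Serp1 by −0.19. Of these, Serp1 was lost in 10 of 14 alternatives (highest adjusted p 0.334), among them leaving out any one of the mice 3, 25, 62, 88, 2 and 87. Gdf15 was lost with no filter on low expression and in the fit to all 40 libraries (highest limma adjusted p 0.0858). Spcs3 was lost with no filter (0.0582).

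At 9 hr the lists gave 3 higher and 0 lower among folding genes, 0 and 1 for import, 0 and 1 for degradation, 1 and 2 for regulators, 1 and 0 for eIF2 control and 0 and 1 for ATF4 targets. Over all genes, 4.69% were higher and 3.22% lower at 9 hr. After quantile normalization import was at 1 and 1, and degradation and the ATF4 targets at 0 and 0. On that scale 16 folding, 18 import, 14 degradation, 11 regulator, 13 eIF2 control and 27 ATF4 target genes were tested. Of all 13070 genes 528 were then higher and 413 lower. Pdia5, another disulfide isomerase, was at 6.16, 6.28, 6.36 and 6.34 in WT and at 6.83, 6.85, 6.94 and 6.95 in Cpeb4-/-, a difference of 0.60 ± 0.080 (SE, limma adjusted p = 0.0027) that passed under all 14 alternatives. Creb3l1 was higher by 0.40 and Eif2ak4 by 0.45, and Creb3 was lower by −0.36, Nupr1 by −0.36, Serp1 by −0.34 and Nploc4 by −0.17. Eif2ak4 did not pass without mouse 3, 25, 62, 69 or 87 (highest adjusted p 0.083), and Nploc4 and Nupr1 did not pass without any one of the mice 3, 25, 62, 88, 55, 69 and 87 (highest 0.121 and 0.135).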

How the data were processed

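The deposited table holds rlog values on a log2 scale, which the authors made with DESeq2 from reads aligned with STAR 2.3.0e to mm10 and counted per gene with featureCounts; the versions of the latter 2 tools are not given in the sources used here. Libraries were poly(A) selected, unstranded and amplified for 8 cycles. The deposited values give no counts, so depth is unknown here and no count test was run.

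Each fit used limma 3.58.1 under R 4.3.3 (lmFit, then eBayes with its variance trend) and kept genes whose rlog averaged log2 of 5 or more over its libraries, with Benjamini-Hochberg adjustment over all genes tested and a threshold of 0.05. The 17 comparisons were genotype at each time (8 libraries), LPS against 0 hr within a genotype (20 libraries) and genotype by time (40 libraries). The fits were tested on simulated data. Tables and figures used Python 3.11.15, numpy 2.4.6, pandas 2.3.3 and matplotlib 3.10.9.

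Mouse numbers pair the times, since each mouse gave all 5 libraries of its genotype, and do not pair the genotypes. After removal of group means, the 80 same-mouse pairs had a median r of 0.29 and a range of −0.19 to 0.77, 68 of them over 0.1, and the median for different mice was −0.09. The 60 replicate pairs correlated with r from 0.992 to 0.998, and 0 held identical values.

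Members, lists and tests were chosen with earlier results of these data known. Values per library are given for members called between genotypes at 6 or 9 hr or in genotype by time, for the 6 members with the largest change after LPS in WT, and for the sensors and transcription factors. From each other list the largest called rise and fall are named. Standard errors are from limma. Promoters are those of RefSeq on GRCm38.p6, and 29 of 34 members matched. As alternatives, the filter was dropped or raised to 5, the variance trend was dropped, batch or mouse entered the model, one fit took all 40 libraries, values were quantile normalized, and each mouse was left out. For the named genes of the other lists and for Cpeb4 the same alternatives were added after seeing the data.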

Additional observations from a re-analysis of the deposited data

Results flagged for a closer look

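In 17 of 340 groups of 4 libraries (5%) a single library of a member stood apart from the other 3 by Dixon's criterion, and chance marks about 1 in 20 groups. In Cpeb4-/- these were Atf6 in mouse 2 at 9 hr (10.97, others 11.19 to 11.22), Calr in mouse 2 at 9 hr (14.01, others 14.20 to 14.24), Manf in mouse 2 at 1 hr (11.63, others 11.42 to 11.44), Hspa5 in mouse 55 at 6 hr (15.65, others 15.39 to 15.42), Hsp90b1 in mouse 3 at 6 hr (14.9, others at 14.92), Dnajc3 in mouse 3 at 0 hr (11.24, others 11.17 to 11.18) and Pdia6 in mouse 62 at 6 hr (13.31, others 13.20 to 13.21). In WT mouse 87 they were Atf4 at 0 hr (12.21, others 12.07 to 12.09), Dnajb9 at 1 hr (9.97, others 10.06 to 10.07), Herpud1 at 9 hr (10.94, others 10.78 to 10.79) and Sel1l at 0 hr (12.07, others 12.22 to 12.24). In WT mouse 88 they were Hspa5 at 3 hr (15.13, others 15.01 to 15.03), Pdia4 at 3 hr (11.24, others 11.04 to 11.07) and Asns at 0 hr (9.62, others 9.85 to 9.89). In WT mouse 69 they were Hsp90b1 at 3 hr (14.42, others 14.57 to 14.60), Sel1l at 9 hr (12.36, others 12.47 to 12.49) and Trib3 at 6 hr (6.96, others 6.37 to 6.45). WT mouse 25 had 0 such values. The difference of Pdia4 between genotypes grew from 0 to 9 hr by 0.25 (limma, adjusted p = 0.0386), the one member for which limma called the genotype by time term, and without WT mouse 25, for example, its adjusted p was 0.159.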

How the results depend on the processing

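The rlog values carry no counts, so the precision of low genes is unknown, and cage and genotype cannot be told apart. Under all alternatives run, limma called 3 of the 11 genotype differences at 6 and 9 hr (Pdia4 at both times, Creld2 at 6 hr), and 4 of 10, 12 of 21, 15 of 26 and 15 of 25 changes after LPS in WT at 1, 3, 6 and 9 hr, against 8 of 18, 13 of 25, 16 of 30 and 17 of 28 in Cpeb4-/-. The cause of the changes listed here was not tested.

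For Cpeb4-/- against WT, one fit to all 40 libraries gave 4 members higher and 4 lower at 1 hr, 1 higher at 3 hr, and for 9 hr it called 2 members higher and 4 lower. With no filter on low expression there were 0 lower at 1 hr, 2 higher and 0 lower at 6 hr and 1 lower at 9 hr. The member lower at 9 hr in that fit was Syvn1 (−0.12, limma adjusted p = 0.0471), while Ddit3 and Herpud1 were lost. Without the variance trend there were 0 lower at 1 hr, 2 higher at 6 hr and 1 lower at 9 hr, with 0 called in genotype by time at 9 hr. Batch as a covariate gave 4 lower at 9 hr, and quantile normalization 11 higher at 6 hr and 0 in genotype by time at 9 hr. A mean rlog of 5 or more left 1 lower in WT at 9 hr, where Derl3 was not tested. In the paired fit, with the mouse as a block, 17 members were higher in WT at 1 hr and 3 were called in genotype by time at 6 hr; it moved no other count by over 1.5 times.

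Leaving out 1 mouse at a time gave for Cpeb4-/- against WT 0 to 2 higher and 0 to 3 lower at 1 hr, 0 to 5 and 0 to 1 at 3 hr, 3 to 10 and 1 to 2 at 6 hr and 1 to 8 and 0 to 5 at 9 hr. For LPS at 1 hr it gave 5 to 9 higher and 0 to 0 lower in WT (5 without mouse 25) and 11 to 17 higher in Cpeb4-/- (11 without mouse 62), and for genotype by time 0 to 1 called at 6 hr and 0 to 1 at 9 hr. Counts over all genes in these fits are not given here.

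Quantile normalization gave, for higher and lower members after LPS, 5 and 6, 6 and 18, 11 and 14, and 15 and 10 in WT at 1, 3, 6 and 9 hr, and 9 and 11, 6 and 18, 13 and 13, and 16 and 9 in Cpeb4-/-. Of all 13107 genes in WT, 1895 and 3098, 3744 and 5177, 4641 and 5435, and 4556 and 4639 were higher and lower. Of all 13106 genes in Cpeb4-/- these counts were 2447 and 3978, 3993 and 5494, 4836 and 5399, and 4531 and 4863. Of single members it turned 76 differences after LPS that were called on the deposited scale, after quantile normalization or on both. They were in WT at 1 hr Xbp1 −0.19, Hsp90b1 −0.25, Calr −0.24, Canx −0.18, Pdia3 −0.23 and Edem1 −0.10. The values then were in WT at 1 hr Xbp1 −0.19, Hsp90b1 −0.25, Calr −0.24, Canx −0.18, Pdia3 −0.23 and Edem1 −0.10. In WT at 3 hr they were Atf4 −0.074, Hsp90b1 −0.52, Hyou1 −0.086, Calr −0.47, Canx −0.36, Manf −0.037, Dnajb11 −0.22, Dnajc3 −0.21, Pdia3 −0.53, Pdia6 −0.38, Edem1 −0.16 and Derl2 −0.19. In WT at 6 hr they were Atf6 −0.14, Hsp90b1 −0.68, Calr −0.57, Canx −0.52, Dnajb11 −0.11, Dnajc3 −0.28, Pdia3 −0.86, Pdia6 −0.29, Sel1l −0.095, Edem1 −0.31 and Derl2 −0.18. In WT at 9 hr they were Hsp90b1 −0.22, Calr −0.11, Canx −0.21, Dnajc3 −0.17, Pdia3 −0.47, Sel1l −0.15 and Edem1 −0.29. In Cpeb4-/- at 1 hr they were Hsp90b1 −0.25, Calr −0.15, Canx −0.17, Dnajb11 −0.13, Dnajc3 −0.0076, Pdia3 −0.33, Pdia4 −0.14, Pdia6 −0.24, Syvn1 −0.010, Edem1 −0.030, Derl2 −0.14 and Ppp1r15b −0.027. In Cpeb4-/- at 3 hr they were Atf6 −0.22, Hsp90b1 −0.47, Calr −0.43, Canx −0.35, Dnajb11 −0.15, Dnajc3 −0.19, Pdia3 −0.53, Pdia6 −0.35, Edem1 −0.17 and Derl2 −0.15. In Cpeb4-/- at 6 hr they were Atf6 −0.37, Hsp90b1 −0.43, Calr −0.51, Canx −0.49, Dnajc3 −0.16, Pdia3 −0.67, Pdia6 −0.14, Sel1l −0.14, Edem1 −0.28 and Derl1 −0.00082. In Cpeb4-/- at 9 hr they were Hsp90b1 −0.094, Calr −0.026, Canx −0.22, Dnajc3 −0.056, Pdia3 −0.40, Pdia4 −0.086, Sel1l −0.20 and Edem1 −0.20. For the named genes of the other lists and Cpeb4 the alternatives were chosen after seeing the data, and none of these genes changed direction.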
